A study of Homo sapiens with 18 samples.

Results

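The lung metastasis signature genes described here are 10 genes known from the lung-tropic derivative of the MDA-MB-231 breast cancer line, namely EREG, MMP1, PTGS2, ID1, SPARC, VCAM1, CXCL1, TNC, ANGPTL4 and FSCN1. They were found in the counts table by their gene symbols, and all 10 were present among its 58815 genes. Each of them was also among the 12081 genes that passed the filter on low counts and were tested. VCAM1 and ANGPTL4 passed that filter through their counts in LM2 alone, while the other 8 passed it in each line.

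Metastatic cells that reach a distant organ must leave the vessel, attach to the local matrix and resume growth there. Genes of the lung signature encode proteins that act at these steps. Epiregulin, cyclooxygenase 2 and collagenase loosen vessel walls, angiopoietin-like 4 opens contacts between endothelial cells, tenascin C and SPARC shape the matrix around the cell, VCAM1 is a cell surface adhesion molecule, and ID1 restrains differentiation. The signature was defined on a lung-tropic population, so a higher level in LM2 than in other derivatives is what its name stands for and is no independent evidence of that order.

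The study asked what depletion of WDR5, a scaffold protein of the complexes that methylate histone H3 at lysine 4, does to the transcriptome of triple-negative breast cancer cells. Polyadenylated RNA was sequenced from 3 derivatives of MDA-MB-231, which metastasize more readily to lung (LM2), brain (BrM3, written BrM2 or BrM in the labels) and bone (BoM). Each derivative carried an inducible hairpin in the pINDUCER10 vector, either a control hairpin (shCtrl) or a hairpin against WDR5 (shWDR5), and every culture, controls included, received doxycycline at 1 µg/mL for 3 days. The paper names a single WDR5 hairpin for the sequencing, so effects of WDR5 loss and of that hairpin's other targets cannot be told apart here. There were 3 libraries per line and hairpin and 18 in all, and the 3 libraries of a group come from different passages of 1 derived cell population. P-values therefore measure the spread between passages, and a difference between lines is a difference between these particular populations. Parental MDA-MB-231 cells were not analysed here.

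Totals lay between 17485841 and 119667013 counts per library. WDR5 itself fell in each line, from 125 ± 11.1 to 23.1 ± 2.24 CPM (counts-per-million, scaled to the library) in LM2 (mean ± SD, n = 3). The change in BrM3 was from 86.1 ± 6.95 to 21.9 ± 1.42 CPM, and BoM cells went from 89.5 ± 1.71 to 19.0 ± 4.39. In the libraries with shCtrl, WDR5 was lower in BrM3 than in LM2 by a log2 difference of -0.54 ± 0.13 (SE) and in BoM by -0.48 ± 0.13, with adjusted p of 0.0028 and 0.0055 (edgeR). The labelled cell type was checked by markers: 6 markers of mesenchymal triple-negative cells summed to between 4060 and 5810 CPM per library. CDH2, 1 of the 6, averaged only between 0.185 and 0.797 CPM per group and did not pass the filter. ESR1, the oestrogen receptor, averaged between 0.185 and 0.398 CPM per group. The 9 luminal markers, ESR1 among them, summed to between 572 and 934 CPM per library, with KRT8 and KRT18 averaging 390 and 287 CPM in LM2 with shCtrl. A list of 6 leukocyte markers summed to between 1.26 and 4.84 CPM, and a list of 5 endothelial markers to between 6.66 and 23.7 CPM.

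Sequence around the start sites of members is shown for 3 genes that the results turn on. VCAM1 and EREG were the members called after WDR5 knockdown, and SPARC was, with VCAM1, among the members farthest apart between lines. Promoter windows of RefSeq (GRCh38.p14), from 250 bases before to 50 bases after the start, matched 8 members. In each line below, capitals mark matches on either strand to the letters TATAAA of the TATA box, GGNNTTTCC of NF-kB or ACGTG of the hypoxia element. The windows lie at chr1:100719492-100719791 on the plus strand for VCAM1, chr4:74364895-74365194 on the plus strand for EREG and chr5:151686866-151687165 on the minus strand for SPARC.
VCAM1: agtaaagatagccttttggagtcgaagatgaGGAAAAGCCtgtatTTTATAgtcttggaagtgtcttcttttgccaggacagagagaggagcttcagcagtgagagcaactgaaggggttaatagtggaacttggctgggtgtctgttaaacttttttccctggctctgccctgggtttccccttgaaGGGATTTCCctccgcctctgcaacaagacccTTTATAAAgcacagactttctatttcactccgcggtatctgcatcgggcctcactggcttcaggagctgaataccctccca
EREG: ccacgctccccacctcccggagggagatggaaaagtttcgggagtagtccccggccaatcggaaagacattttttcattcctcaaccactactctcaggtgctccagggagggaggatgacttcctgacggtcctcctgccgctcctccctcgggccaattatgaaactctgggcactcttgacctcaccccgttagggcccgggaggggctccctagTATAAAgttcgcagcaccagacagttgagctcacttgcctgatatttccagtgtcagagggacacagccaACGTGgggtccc
SPARC: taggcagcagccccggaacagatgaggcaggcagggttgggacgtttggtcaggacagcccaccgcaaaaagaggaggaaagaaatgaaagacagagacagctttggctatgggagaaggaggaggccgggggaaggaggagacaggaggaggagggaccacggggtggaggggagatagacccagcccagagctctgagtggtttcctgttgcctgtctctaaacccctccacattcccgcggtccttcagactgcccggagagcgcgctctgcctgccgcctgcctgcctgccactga
The VCAM1 window held NF-kB letters 219 and 62 bases before the start and a TATA box at 29 bases before it, with matches of TATAAA on the opposite strand at 31 bases, overlapping it, and at 205 bases before the start. The EREG window held a TATA box 32 bases before the start and the hypoxia letters 39 bases after it. None of the letters searched occurred in the SPARC window. TATAAA was found in 5 of the 8 members' windows (EREG, PTGS2, ID1, VCAM1 and ANGPTL4) against 11.5% of 35116 promoters, the NF-kB letters in 2 (VCAM1 and CXCL1) against 6.26%, and ACGTG in 4 (EREG, PTGS2, ID1 and ANGPTL4) against 21.4%. The AP-1 letters TGANTCA, the E-box CACGTG and the cAMP response element TGACGTCA occurred in 0 of the 8, against 7.71%, 7.26% and 1.85% of all promoters. These matches describe the letters of the windows.

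Between the lines, most signature genes were highest in LM2. In the shCtrl libraries, 6 of the 10 genes were called lower in BrM3 than in LM2 and 1, MMP1, was called higher, where 23.4% of all tested genes were called lower and 24.2% higher (edgeR's quasi-likelihood test, Benjamini-Hochberg adjusted p under 0.05). Between BoM and LM2, 8 members were called lower in BoM and 1, again MMP1, was called higher, where 25.8% of tested genes were called lower and 25.9% higher. VCAM1 and ANGPTL4 are among the lower members in both comparisons. They entered the test through their counts in LM2 alone, so their calls against LM2, and their part in the medians below, are no independent support. Between BoM and BrM3, 6 members were called lower in BoM and 1, EREG, higher, against backgrounds of 19.8% and 17.8%. Leaving out 1 library took the 6 lower calls to between 3 and 5, with 3 left without BrM3 shCtrl replicate 1 or without BrM3 shCtrl replicate 2. The members' median log2 difference was -1.31 for BrM3 over LM2, -2.29 for BoM over LM2 and -0.70 for BoM over BrM3, where the medians over all tested genes were 0.01, -0.01 and 0.00. Each pair of these comparisons shares a line's libraries, so they are not independent of each other.

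**Figure D1:**
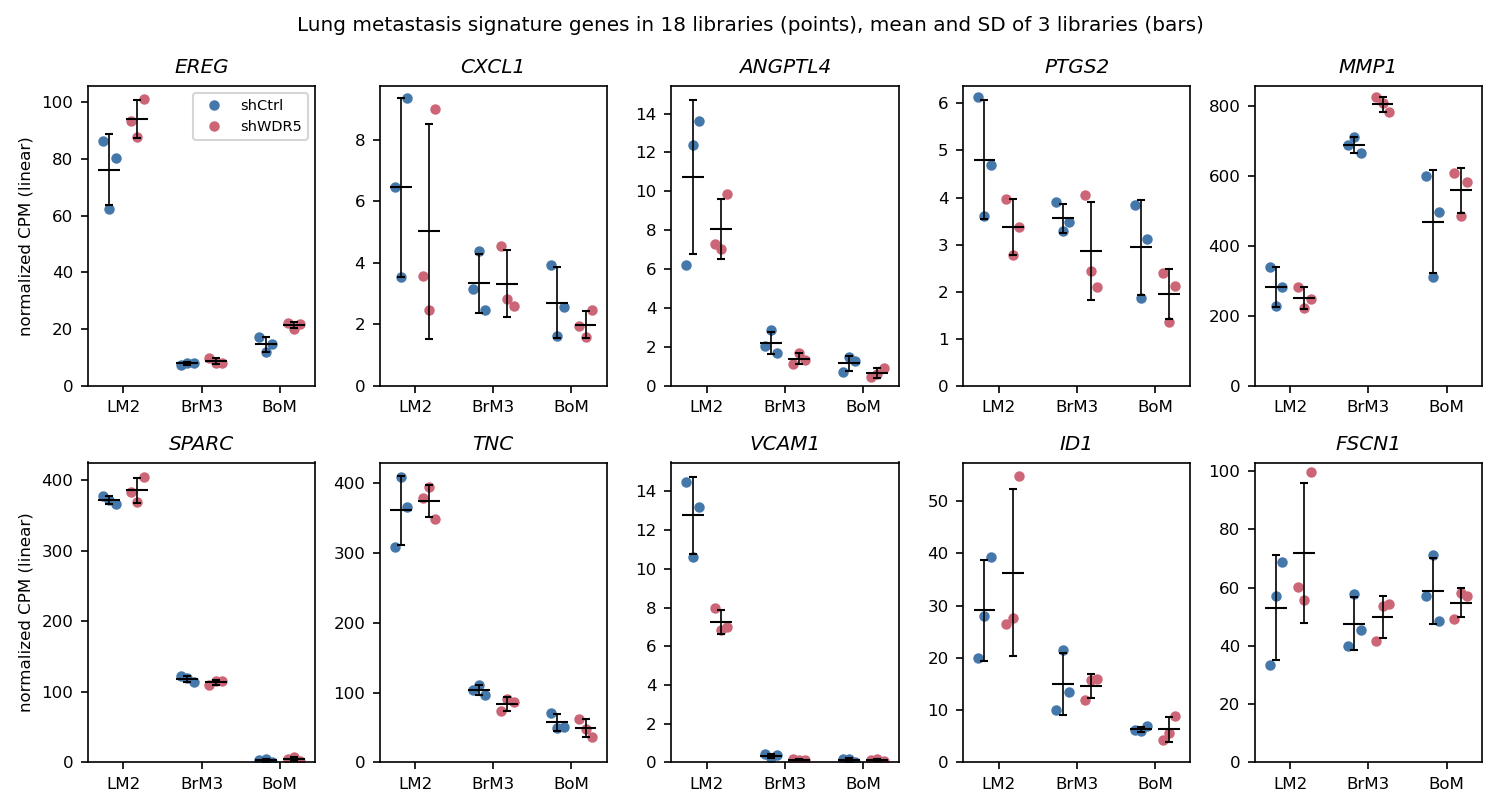
Normalized CPM (linear axis from 0, a scale for each panel) of the 10 genes in 18 libraries, by line and hairpin. Points are libraries and bars the mean ± SD of 3; EREG, ANGPTL4, SPARC, TNC and VCAM1 in LM2 sit above all libraries of BrM3 and BoM, and MMP1 is highest in BrM3.

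After WDR5 knockdown, the share of members called was compared with that of all tested genes. In LM2, 1 of 10 members (VCAM1) fell and 0 rose, with EREG under an unadjusted p of 0.05, where 4.78% of tested genes were called lower and 1.48% higher. In BrM3, edgeR called 0 members in either direction, with 1 (VCAM1) at an unadjusted p under 0.05, against 7.87% called lower and 2.87% higher among all tested genes. DESeq2 called 1 member in each line, VCAM1 in LM2, VCAM1 in BrM3 and EREG in BoM. Over all tested genes DESeq2 called 1142 in LM2 and 1768 in BrM3. In BoM, 1 member (EREG) rose and 0 fell, against 5.41% higher and 10.7% lower, and with the replicate block described with PTGS2, 3 rose and 1 fell, against 11.2% and 15.0%. With 10 members, the counts of 0 or 1 without the block lie near the background shares. The shares without the block are also the background for the edgeR counts in the lists of related genes and markers below. For counts under an unadjusted p of 0.05 in edgeR, here and in those lists, the background was 20.1%, 24.9% and 30.2% of all tested genes in LM2, BrM3 and BoM. The median log2 fold change of the members was -0.06 for LM2, -0.06 for BrM3 and -0.09 for BoM, beside 0.00, -0.01 and 0.02 over all tested genes.

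**Figure D2:**
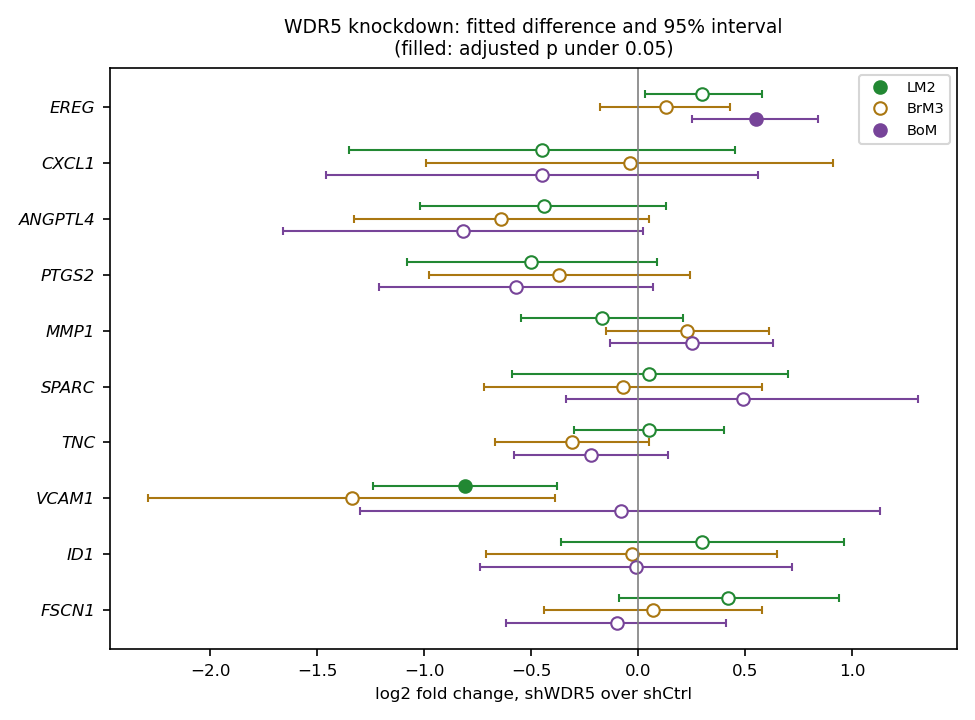
Log2 fold change of shWDR5 over shCtrl in LM2, BrM3 and BoM (points) with 95% intervals (lines) for the 10 genes; filled points passed an adjusted p of 0.05. Filled points are VCAM1 in LM2 at -0.81 and EREG in BoM at 0.55, and the intervals of EREG in LM2 and VCAM1 in BrM3 are the other 2 that leave out 0.

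Among the secreted factors, EREG (chr4:74365145-74388749) encodes epiregulin, a ligand of the EGF receptor family. It stood at 86.2, 62.2 and 80.3 CPM in the LM2 shCtrl libraries, at 7.48, 7.99 and 8.25 in BrM3 and at 17.2, 12 and 14.8 in BoM. The 3 lines did not overlap, with LM2 highest and BrM3 lowest. The log2 difference was -3.27 ± 0.15 (SE) for BrM3 over LM2, -2.38 ± 0.14 for BoM over LM2 and 0.89 ± 0.14 for BoM over BrM3, with adjusted p of 1e-11, 4.7e-10 and 1e-04.

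EREG was the member that rose with shWDR5 in BoM. The shWDR5 libraries of BoM held 22.2, 20.1 and 21.9 CPM, all above the 3 shCtrl libraries. The log2 fold change was 0.55 ± 0.14 (SE, 95% interval 0.25 to 0.84, adjusted p = 0.013), and within replicate numbers the ratio of shWDR5 to shCtrl was 1.29, 1.68 and 1.48. The call was lost without shCtrl replicate 2 of BoM (log2 fold change 0.42, adjusted p = 0.077) and when BoM was fitted alone (adjusted p = 0.051). In LM2, shWDR5 libraries held 93.4, 87.6 and 101 CPM, which were also above all shCtrl libraries, with a log2 fold change of 0.30 ± 0.13 that missed the threshold at an adjusted p of 0.20. In BrM3 the groups overlapped, at 9.98, 8.04 and 8.08 CPM with shWDR5, and the log2 fold change was 0.13 ± 0.14 (adjusted p = 0.64). The difference of response between BoM and BrM3 was 0.42 (95% interval 0.00 to 0.84) with an adjusted p of 1, so a difference in EREG's response between lines was not shown.

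The other genes of the EGF family were read from a list of 14 ligands and receptors, of which 8 were tested. ERBB3, a receptor that pairs with HER2, fell with shWDR5 in LM2 (log2 fold change -0.66, adjusted p = 0.0032) and in BoM (-0.75, adjusted p = 0.00052). EGF fell in BrM3 (-0.82, adjusted p = 0.015), and NRG1, a ligand of ERBB3, rose in BoM by 0.35 (adjusted p = 0.039). Thus 1 of 8 was called lower in LM2, 1 lower in BrM3, and 1 higher and 1 lower in BoM. The shares of all tested genes in these directions were 4.78%, 7.87%, 5.41% and 10.7%. TGFA, another EGF receptor ligand, was highest in LM2, with 78.5 CPM in LM2, 21.7 in BrM3 and 29.4 in BoM under shCtrl, as was EGF with 3.89, 1.45 and 0.657. The list did not share this order, and NRG1 was lowest in LM2 at 42.8, 80.7 and 144 CPM. Of the 8, 3 were called higher and 3 lower in BrM3 than in LM2, and 4 higher and 3 lower in BoM. The shares of all tested genes were 24.2%, 23.4%, 25.9% and 25.8%. EGF, among the lower genes in both comparisons, passed the filter on low counts through LM2 alone, so its calls against LM2 are not independent of that selection.

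CXCL1 (chr4:73869393-73871308), a chemokine that draws neutrophils and myeloid cells, varied widely between libraries of 1 group. Its shCtrl libraries held 6.47, 3.54 and 9.34 CPM in LM2, with 3.15, 4.37 and 2.46 in BrM3 and with 3.93, 1.62 and 2.57 in BoM. The lines overlapped. BoM was called lower than LM2 (log2 difference -1.25 ± 0.44, adjusted p = 0.024), and this call was lost without LM2 shCtrl replicate 3 (-0.85, adjusted p = 0.14), BoM shCtrl replicate 2 (-0.97, adjusted p = 0.11) or BoM shCtrl replicate 3 (-1.22, adjusted p = 0.063). BrM3 and LM2 differed by -0.97 ± 0.43 with an adjusted p of 0.072. With shWDR5 the levels were 3.58, 2.48 and 9.01 in LM2, with 4.56, 2.83 and 2.58 in BrM3 and with 1.93, 1.59 and 2.46 in BoM, which overlapped shCtrl in each line, and the widest 95% interval of the log2 fold change ran from -1.46 to 0.56 in BoM. Of 14 related genes (other CXC chemokines, their receptors and NF-kB feedback genes), 8 were tested and edgeR called 0 of them after knockdown in each line, with 0, 1 and 1 under an unadjusted p of 0.05 in LM2, BrM3 and BoM and 1 called by DESeq2, in BoM. CXCL8, another neutrophil chemokine, was lower in BrM3 than in LM2 under shCtrl (log2 difference -1.19, adjusted p = 0.0072), at 9.69 ± 1.07 against 22.1 ± 8.08 CPM (SD, n = 3). RELB, an NF-kB subunit, was lower in BoM, at 5.05 ± 0.859 CPM against 9.64 ± 2.95 in LM2 and 10.6 ± 2.2 in BrM3.

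ANGPTL4 (chr19:8363289-8374370), a secreted inhibitor of lipoprotein lipase induced by PPAR factors and hypoxia, was highest in LM2. It passed the filter on low counts through LM2 alone, so its calls against LM2 are not independent of that selection. Levels under shCtrl were 6.20, 12.4 and 13.6 CPM in LM2, with 2.06, 2.85 and 1.71 in BrM3 and with 0.735, 1.49 and 1.26 in BoM. LM2 lay above every library of both other lines, and BoM lay below BrM3. On the log2 scale the difference was -2.30 ± 0.29 for BrM3 over LM2 (adjusted p = 5.6e-06), -3.23 ± 0.32 for BoM over LM2 (adjusted p = 2.7e-07) and -0.94 ± 0.33 for BoM over BrM3 (adjusted p = 0.035). The last call was lost without any of BrM3 shCtrl replicate 1 or 2 (adjusted p = 0.055 and 0.15) or BoM shCtrl replicate 1 or 3 (adjusted p = 0.18 and 0.065).

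The ANGPTL4 values with shWDR5 were 7.30, 7.03 and 9.85 CPM in LM2, with 1.14, 1.70 and 1.35 in BrM3 and with 0.456, 0.620 and 0.924 in BoM. The fitted log2 fold changes were -0.44 ± 0.27, -0.64 ± 0.33 and -0.82 ± 0.40, and none passed the threshold (adjusted p = 0.40, 0.24 and 0.18). In BrM3 all shWDR5 libraries were below all shCtrl libraries, while in LM2 and BoM the groups overlapped. Among 18 other ANGPTL genes and PPAR or hypoxia targets, 12 were tested. PLIN2, which coats lipid droplets, rose in LM2, BrM3 and BoM by 0.30, 0.35 and 0.37 on the log2 scale (adjusted p = 0.042, 0.014 and 0.007), and ANGPTL2 fell in both BrM3 (log2 fold change -0.52 with an adjusted p of 0.034) and BoM (-0.90 with an adjusted p of 0.0036). LPL, the lipase that ANGPTL4 inhibits, fell in BoM (-0.87, adjusted p = 0.0027) and ADM, a hypoxia target, rose in BrM3 by 0.68 (adjusted p = 0.013). Counted over the list, 1 gene rose and 0 fell in LM2, 2 rose and 2 fell in BrM3, and 1 rose and 2 fell in BoM. Under shCtrl, CA9, a hypoxia-induced carbonic anhydrase, stood at 5.34 ± 1.87 CPM in LM2 and 0.197 ± 0.0398 in BrM3, and PDK4, a PPAR target, at 3.53 ± 0.38 and 0.52 ± 0.156 (SD, n = 3). CA9 and PDK4 also passed the filter through LM2 alone, so their higher level there is not independent of that selection.

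**Figure D3:**
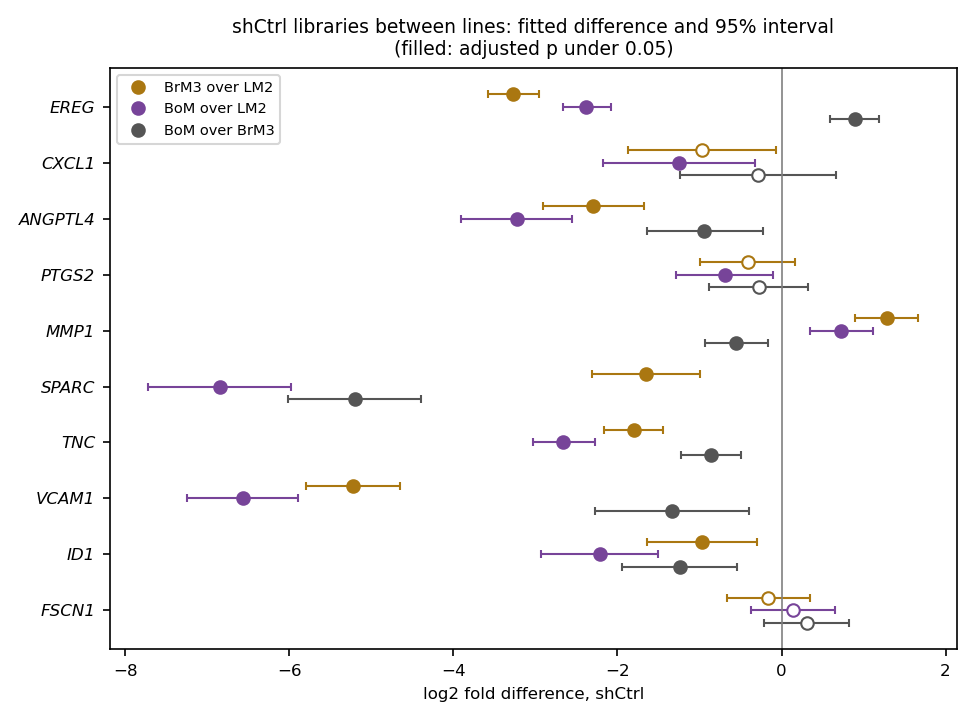
Log2 difference between lines in the shCtrl libraries (points) with 95% intervals (lines) for the 10 genes; filled points passed an adjusted p of 0.05. SPARC at -6.85 and VCAM1 at -6.57 in BoM over LM2 lie farthest from 0, MMP1 lies above 0 against LM2, and the 3 intervals of FSCN1 include 0.

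PTGS2 (chr1:186671791-186680922), the inducible cyclooxygenase that starts prostaglandin synthesis, was the lowest member per length in LM2. Its shCtrl libraries held 6.13, 3.60 and 4.69 CPM in LM2, with 3.90, 3.29 and 3.49 in BrM3 and with 3.85, 1.86 and 3.12 in BoM, so the lines overlapped. BoM was called lower than LM2 at the margin of the threshold (log2 difference -0.69 ± 0.28, adjusted p = 0.048), and the call was lost without LM2 shCtrl replicate 1 or 3 (adjusted p = 0.16 and 0.082) or BoM shCtrl replicate 2 or 3 (adjusted p = 0.22 and 0.078). With shWDR5 the values were 3.97, 2.79 and 3.38 in LM2, with 4.05, 2.43 and 2.10 in BrM3 and with 2.39, 1.36 and 2.12 in BoM. These overlapped shCtrl in each line, with log2 fold changes of -0.50 ± 0.28, -0.37 ± 0.29 and -0.57 ± 0.30 (adjusted p = 0.34, 0.47 and 0.22).

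The replicate numbers of BoM met the bar used for pairing, as set out with the methods, though the labels state no pairing. A fit with the replicate block called 4 members there in place of 1, and the added calls depend on that pairing. PTGS2 was lower in each BoM pair, with ratios of 0.621, 0.731 and 0.679, and its blocked log2 fold change was -0.58 (adjusted p = 0.028). SPARC was higher in each pair with ratios of 1.54, 1.45 and 1.53 and a blocked value of 0.58 (adjusted p = 0.002), and MMP1 with ratios of 1.02, 1.56 and 1.17 and a blocked value of 0.30 (adjusted p = 0.045). EREG stayed called at 0.55 (adjusted p = 0.0026). Under this block 11.2% of tested genes were called higher and 15.0% lower in BoM, so the members' 3 higher calls and 1 lower call are read against those shares. In the lists of related genes described with each member, the block moved the count in BoM by over 1.5 times for the EGF family (1 higher and 4 lower of 8), ID and BMP genes (4 and 1 of 15), adhesion molecules (1 and 4 of 7), filopodia genes (4 and 0 of 13), ANGPTL4 relatives (2 and 3 of 12), chemokine genes (1 and 0 of 8), matricellular genes (0 and 1 of 6) and other genes of the lung-tropic derivative (3 and 3 of 12).

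**Figure D4:**
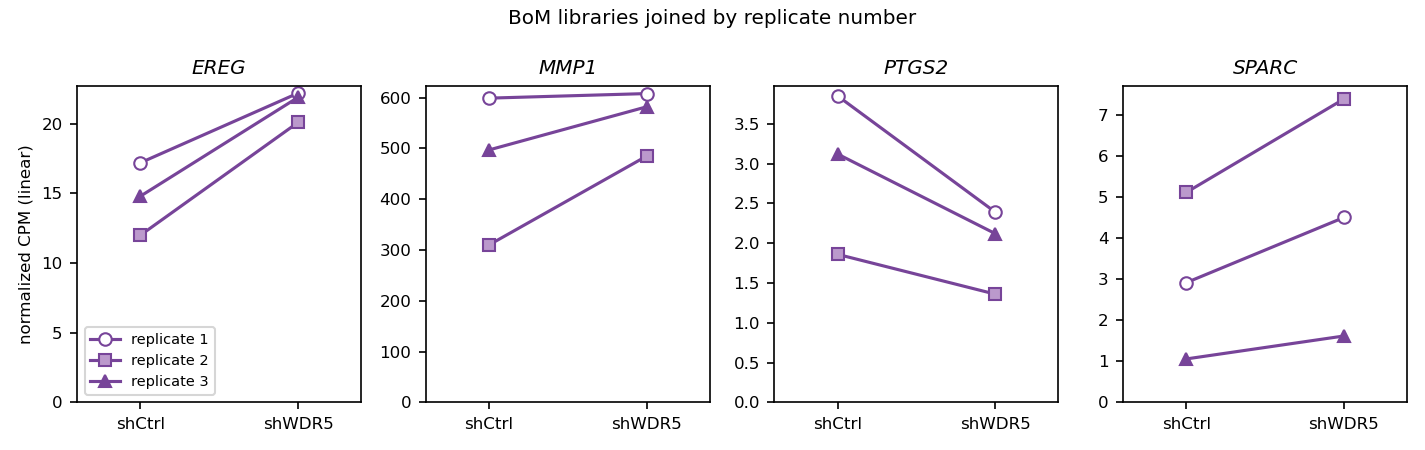
Normalized CPM (linear axis from 0) of EREG, MMP1, PTGS2 and SPARC in the BoM libraries, with shCtrl and shWDR5 libraries of the same replicate number joined by a line. EREG, MMP1 and SPARC are higher with shWDR5 in each of 3 pairs and PTGS2 is lower in each of 3; SPARC differs more between pairs than between hairpins.

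Around PTGS2, 15 genes of prostaglandin synthesis, receptors and breakdown were listed and 8 tested. PLA2G4A, the phospholipase that frees arachidonic acid for cyclooxygenases, fell in each of the 3 lines, the log2 fold change being -0.51, -0.76 and -0.46 in LM2, BrM3 and BoM (adjusted p = 0.024, 0.0014 and 0.032). TBXAS1, thromboxane synthase, fell in both BrM3 (-0.48 with an adjusted p of 0.041) and BoM (-0.46 with an adjusted p of 0.046), and PTGES, a prostaglandin E synthase, fell in BoM (-0.48, adjusted p = 0.036). No tested gene of this list was called higher, and 1, 2 and 3 were called lower in LM2, BrM3 and BoM. Over all tested genes 1.48%, 2.87% and 5.41% were called higher and 4.78%, 7.87% and 10.7% lower. With 8 tested genes, the 0 called higher lies near those shares. With the replicate block, 2 were called lower in BoM, where TBXAS1 kept its log2 fold change of -0.46 but missed the threshold (adjusted p = 0.058). PTGS1, the constitutive cyclooxygenase, had its highest shCtrl level in BoM, at 10.2 ± 0.83 CPM against 3.44 ± 0.589 in LM2 and 1.10 ± 0.216 in BrM3 (SD, n = 3). PTGFR, the prostaglandin F receptor, was highest in LM2, at 4.15 ± 0.604 CPM against 1.75 ± 0.342 in BrM3 and 0.731 ± 0.167 in BoM. PTGFR passed the filter on low counts through LM2 alone, so its order of lines is not independent of that selection.

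MMP1 (chr11:102789401-102798160), the interstitial collagenase, was the exception among the members, being lowest in LM2. It held 339, 227 and 282 CPM in LM2 shCtrl libraries, with 687, 710 and 664 in BrM3 and with 599, 310 and 497 in BoM. BrM3 lay above both other lines in every library, while 1 BoM library fell inside the range of LM2. Differences on the log2 scale were 1.28 ± 0.18 for BrM3 over LM2 and 0.73 ± 0.18 for BoM over LM2 (adjusted p = 2.1e-05 and 0.0029). BoM was called lower than BrM3 (log2 difference -0.55 ± 0.18, adjusted p = 0.024), a call lost without BrM3 shCtrl replicate 1 or 2 (adjusted p = 0.052 and 0.066) or BoM shCtrl replicate 2 (log2 difference -0.33, adjusted p = 0.097).

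With shWDR5, MMP1 held 283, 222 and 248 CPM in LM2, with 824, 808 and 781 in BrM3 and with 608, 485 and 582 in BoM. The BrM3 groups did not overlap, but the log2 fold change of 0.23 ± 0.18 did not pass the test over all groups (adjusted p = 0.48), and BrM3 fitted alone gave 0.25 with an adjusted p of 0.045. The values in LM2 and BoM were -0.17 ± 0.18 and 0.25 ± 0.18 (adjusted p = 0.68 and 0.37), and the replicate block gave 0.30 with an adjusted p of 0.045 in BoM. Among 17 other secreted metalloproteinases and their TIMP inhibitors, 7 were tested, and TIMP4 fell with shWDR5 in both BrM3 (log2 fold change -1.07 with an adjusted p of 0.0031) and BoM (-1.11 with an adjusted p of 0.00076), while MMP19 fell in BrM3 (-0.47, adjusted p = 0.039). In LM2 edgeR called 0 of the 7, with 2 under an unadjusted p of 0.05 and 0 called by DESeq2. MMP2, a gelatinase, was highest in LM2 and lowest in BoM, with 15.1 ± 2.72 CPM in LM2, 0.510 ± 0.24 in BrM3 and 0.130 ± 0.164 in BoM (SD, n = 3). MMP2 passed the filter on low counts through LM2 alone, so its place as highest there is not independent of that selection. TIMP4 was also highest in LM2, at 7.53 ± 0.745 CPM against 1.89 ± 0.313 in BrM3 and 3.55 ± 0.235 in BoM.

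SPARC (chr5:151661096-151686975), a secreted glycoprotein that binds collagen, and VCAM1 had the largest fitted differences between lines of the 10 genes, and the order of these 2 was not established, with 95% intervals for BoM over LM2 of -7.72 to -5.98 for SPARC and -7.25 to -5.89 for VCAM1. SPARC stood at 377, 372 and 367 CPM in LM2 shCtrl libraries, at 122, 120 and 114 in BrM3 and at 2.92, 5.12 and 1.06 in BoM. The replicates of LM2 and BrM3 were within a ratio of 1.03 and 1.08 of each other, whereas BoM libraries spanned a ratio of 4.84. Fitted log2 differences were -1.65 ± 0.31 for BrM3 over LM2, -6.85 ± 0.41 for BoM over LM2 and -5.20 ± 0.39 for BoM over BrM3 (adjusted p = 0.00035, 5.2e-10 and 1.7e-08). With shWDR5, SPARC held 383, 369 and 405 CPM in LM2, with 110, 115 and 115 in BrM3 and with 4.51, 7.40 and 1.62 in BoM, and the fit without a block called none of the 3 differences (log2 fold change 0.05 ± 0.31, -0.07 ± 0.31 and 0.49 ± 0.39). A 95% interval of -0.59 to 0.70 in LM2 comes from a fit that estimates 1 spread per gene over all 6 groups, and in BoM the direction turned without shWDR5 replicate 2 (log2 fold change -0.02).

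TNC (chr9:115019575-115118207) encodes tenascin C, a large matrix protein of wounds and metastatic niches, and followed the same order of lines. The shCtrl libraries held 309, 408 and 366 CPM in LM2, with 103, 111 and 96.5 in BrM3 and with 71.3, 49.8 and 50.4 in BoM, with no overlap between lines. The log2 difference was -1.80 ± 0.17 for BrM3 over LM2, -2.66 ± 0.18 for BoM over LM2 and -0.86 ± 0.17 for BoM over BrM3 (adjusted p = 1.9e-07, 2.2e-09 and 0.00086). With shWDR5, TNC held 378, 395 and 349 CPM in LM2, with 73.2, 91.2 and 86.5 in BrM3 and with 62.6, 48.4 and 36.6 in BoM. In BrM3 all shWDR5 libraries were below all shCtrl libraries, yet the log2 fold change of -0.31 ± 0.17 gave an adjusted p of 0.28, and those of LM2 and BoM were 0.05 ± 0.17 and -0.22 ± 0.17 (adjusted p = 0.92 and 0.42).

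The list of other tenascins, SPARC relatives and matricellular genes held 15 genes, 6 of them tested, and edgeR called 0 of the 6 after knockdown in each line, with 1, 0 and 0 under an unadjusted p of 0.05 in LM2, BrM3 and BoM and 0 called by DESeq2. These genes did not share one order of lines. THBS2, thrombospondin 2, was at 123 ± 12.1 CPM in BrM3 against 0.893 ± 0.0867 in LM2 and 1.04 ± 0.295 in BoM, and SPOCK1, a proteoglycan related to SPARC, was at 2.98 ± 0.371 in BrM3 against 21.8 ± 2.3 in LM2 and 25.1 ± 5.99 in BoM (SD, n = 3). THBS2 passed the filter on low counts through BrM3 alone, so its order of lines is not independent of that selection.

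VCAM1 (chr1:100719742-100739045), an adhesion molecule that binds integrins on leukocytes, was near the detection limit outside LM2. It held 14.5, 10.6 and 13.2 CPM in LM2 shCtrl libraries, with 0.429, 0.206 and 0.362 in BrM3 and with 0.177, 0.157 and 0 in BoM. The BrM3 values rest on 8 to 21 counts and those of BoM on 0 to 7, and the library at 0 allows up to 0.15 CPM (3 counts, counting error only). The log2 difference was -5.23 ± 0.27 for BrM3 over LM2 and -6.57 ± 0.32 for BoM over LM2 (adjusted p = 6.2e-11 and 4.5e-11). As VCAM1 passed the filter on low counts through LM2 alone, these calls are not independent of that selection. BoM was called lower than BrM3 (log2 difference -1.34 ± 0.45, adjusted p = 0.026), which was lost without BrM3 shCtrl replicate 1 or 3 (adjusted p = 0.11 and 0.061) or BoM shCtrl replicate 3 (adjusted p = 0.061).

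VCAM1 fell with shWDR5 in LM2. The shWDR5 libraries held 7.97, 6.85 and 6.98 CPM, each below every shCtrl library, and within replicate numbers the ratio was 0.55, 0.646 and 0.529. The log2 fold change was -0.81 ± 0.20 (SE, 95% interval -1.24 to -0.38, adjusted p = 0.023). Its size changed little when a library was left out (-0.93 to -0.71), but the call was lost in 5 of 6 such fits, namely without shCtrl replicate 1 or 3 (adjusted p = 0.061 and 0.084) or shWDR5 replicate 1, 2 or 3 (adjusted p = 0.06, 0.11 and 0.056). The call was also lost with the libraries thinned to the lowest total (log2 fold change -0.76, adjusted p = 0.19) and with GC dependence removed and limma in place of edgeR (-0.76, adjusted p = 0.28). In bulk RNA, fewer cells that express VCAM1 and less VCAM1 RNA per cell cannot be told apart. These libraries come from cultures of a tumour cell line. A list of 5 endothelial markers summed to between 6.66 and 7.72 CPM in the LM2 shCtrl libraries and to between 9.04 and 10.0 with shWDR5. None of the 5 was at 0 throughout. In LM2 with shCtrl, KDR averaged 4.48 CPM, PECAM1 2.22 and CDH5 0.111. The part of these markers in the result was not tested.

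In BrM3, VCAM1 was at 0.171, 0.133 and 0.116 CPM with shWDR5, again below every shCtrl library, from 3 to 6 counts. The log2 fold change of -1.34 ± 0.45 missed the threshold (adjusted p = 0.066) and passed it with DESeq2 (adjusted p = 0.046) and without shCtrl replicate 2 (adjusted p = 0.045). In BoM, levels of 0.107, 0.194 and 0.077 CPM gave a log2 fold change of -0.08 with an interval of -1.30 to 1.13, so a fall of the size seen in LM2 was not detectable at this depth. The difference of response was -0.53 (95% interval -1.57 to 0.51) for BrM3 over LM2, 0.73 (-0.61 to 2.06) for BoM over LM2 and 1.26 (-0.33 to 2.84) for BoM over BrM3, none called.

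Of 15 adhesion molecules of this type and their integrin partners, 7 were tested. ICAM1, which binds leukocyte integrins as VCAM1 does, fell with shWDR5 in BrM3 (log2 fold change -1.01, adjusted p = 0.013), from 8.59 to 4.30 CPM, and had a log2 fold change of -0.04 in LM2 (adjusted p = 0.95). MCAM, an adhesion molecule of melanoma and endothelium, fell in BoM (-0.87, adjusted p = 0.0004), and ALCAM, another member of the same superfamily, rose there by 0.40 (adjusted p = 0.035). edgeR called 0 of the 7 in LM2, where 4 were under an unadjusted p of 0.05 and DESeq2 called 1. ICAM1 was also lower in BrM3 than in LM2 under shCtrl (log2 difference -1.71, adjusted p = 1e-05), while ICAM2 was higher in BoM than in LM2 by 1.73 (adjusted p = 1.3e-06).

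ID1 (chr20:31605283-31606515), an inhibitor of basic helix-loop-helix factors and a target of BMP signals, was highest in LM2 and lowest in BoM. The shCtrl libraries held 20.0, 28.0 and 39.2 CPM in LM2, with 9.97, 21.5 and 13.4 in BrM3 and with 6.13, 5.96 and 6.90 in BoM. BoM lay below both other lines in every library, while 1 BrM3 library fell inside the range of LM2. The log2 difference was -2.21 ± 0.34 for BoM over LM2 (adjusted p = 3.6e-05) and -1.24 ± 0.34 for BoM over BrM3 (adjusted p = 0.0079, and 0.059 without BrM3 shCtrl replicate 2). For BrM3 over LM2 it was -0.97 ± 0.32 (adjusted p = 0.019), lost without LM2 shCtrl replicate 3 (adjusted p = 0.10) or BrM3 shCtrl replicate 1 or 3 (adjusted p = 0.093 and 0.067).

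With shWDR5, ID1 held 26.5, 27.6 and 54.8 CPM in LM2, with 11.9, 15.7 and 16.0 in BrM3 and with 4.35, 5.70 and 8.85 in BoM. These overlapped shCtrl in each line, with log2 fold changes of 0.30 ± 0.31, -0.03 ± 0.32 and -0.01 ± 0.35 (adjusted p = 0.67, 0.97 and 0.99) whose direction turned under other settings. Among 19 genes of the ID family and BMP or SMAD feedback, 15 were tested. BAMBI, a decoy receptor that dampens BMP and TGF-beta signals, rose in all 3 lines by 0.45, 0.42 and 0.57 on the log2 scale (adjusted p = 0.045, 0.045 and 0.0076), SMAD6, an inhibitory SMAD, fell in BoM (-0.50, adjusted p = 0.028) and BMPR2, a BMP receptor, rose in BoM by 0.47 (adjusted p = 0.043). SMAD7, the other inhibitory SMAD, was at 8.27 ± 0.517 CPM in LM2, 6.21 ± 1.15 in BrM3 and 1.69 ± 0.514 in BoM under shCtrl (SD, n = 3). TCF3, a basic helix-loop-helix factor that ID proteins bind, stood at 73.5 ± 26.3, 59.2 ± 13.2 and 33.7 ± 6.32 CPM, and was called lower in BoM than in LM2 (log2 difference -1.13, adjusted p = 0.0019).

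FSCN1 (chr7:5592816-5606655), which bundles actin in filopodia, had no called difference between lines in the edgeR fit of raw counts. Calls came with the setting that removed GC dependence, which also used limma in place of edgeR. Its shCtrl libraries held 33.4, 57.2 and 68.8 CPM in LM2, with 39.9, 57.7 and 45.3 in BrM3 and with 57.0, 71.0 and 48.6 in BoM, and the lines overlapped. Log2 differences between lines were -0.16 (95% interval -0.67 to 0.35) for BrM3 over LM2, 0.14 (-0.37 to 0.65) for BoM over LM2 and 0.31 (-0.21 to 0.82) for BoM over BrM3. With shWDR5 it held 60.2, 55.9 and 99.6 CPM in LM2, with 41.6, 53.6 and 54.5 in BrM3 and with 49.1, 58.3 and 57.2 in BoM, and the log2 fold changes were 0.42 ± 0.24, 0.07 ± 0.24 and -0.10 ± 0.24 (adjusted p = 0.36, 0.90 and 0.81). Of 15 other filopodia genes, 13 were tested, and VASP, which extends actin filaments, rose in BrM3 by 0.36 (adjusted p = 0.049) while EPS8, an actin capping protein, rose in BoM by 0.33 (adjusted p = 0.026). In LM2 edgeR called 0 of the 13, with 2 under an unadjusted p of 0.05 and 0 called by DESeq2. Between lines, EVL, an actin regulator of the VASP family, was lower in BrM3, at 3.61 ± 0.469 CPM against 9.76 ± 1.86 in LM2 and 9.05 ± 0.504 in BoM under shCtrl, while EPS8 was highest in LM2, at 64.0 ± 5.57 CPM against 28.6 ± 0.457 in BrM3 and 34.5 ± 1.75 in BoM (SD, n = 3).

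Within each group, the replicates of FSCN1 were ordered as a property of the libraries, and those of ID1 were in some groups only. The longest transcript of FSCN1 holds 65% G and C bases, that of ANGPTL4 63.3% and that of ID1 58.6%, beside a median of 47.1% over tested genes. The slope of log2 CPM on GC content, measured against the mean of all libraries, differed between replicates. It differed between lines too, at -0.267, -0.162 and -0.173 in BoM with shWDR5 against 0.012, -0.001 and 0.234 in LM2 with shWDR5, per 10 points of GC. In the LM2 shCtrl libraries the slope was -0.140, 0.184 and 0.239 per 10 points of GC, and FSCN1 rose with it from 33.4 to 57.2 and 68.8 CPM and ID1 from 20.0 to 28.0 and 39.2. In BoM shCtrl, with slopes of -0.107, 0.085 and -0.174, FSCN1 again followed the slope at 57.0, 71.0 and 48.6 CPM, but ID1 ran the other way at 6.13, 5.96 and 6.90. With each library's dependence on GC removed, a setting chosen after the data were seen, FSCN1 was called higher with shWDR5 in LM2 (log2 fold change 0.52, adjusted p = 7e-05) and in BrM3 (0.31, adjusted p = 0.0031), and its difference of BoM over LM2 became 0.59 (adjusted p = 4.3e-07). EREG, with 36.1% GC, was called higher in LM2 as well (0.35, adjusted p = 0.043).

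**Figure D5:**
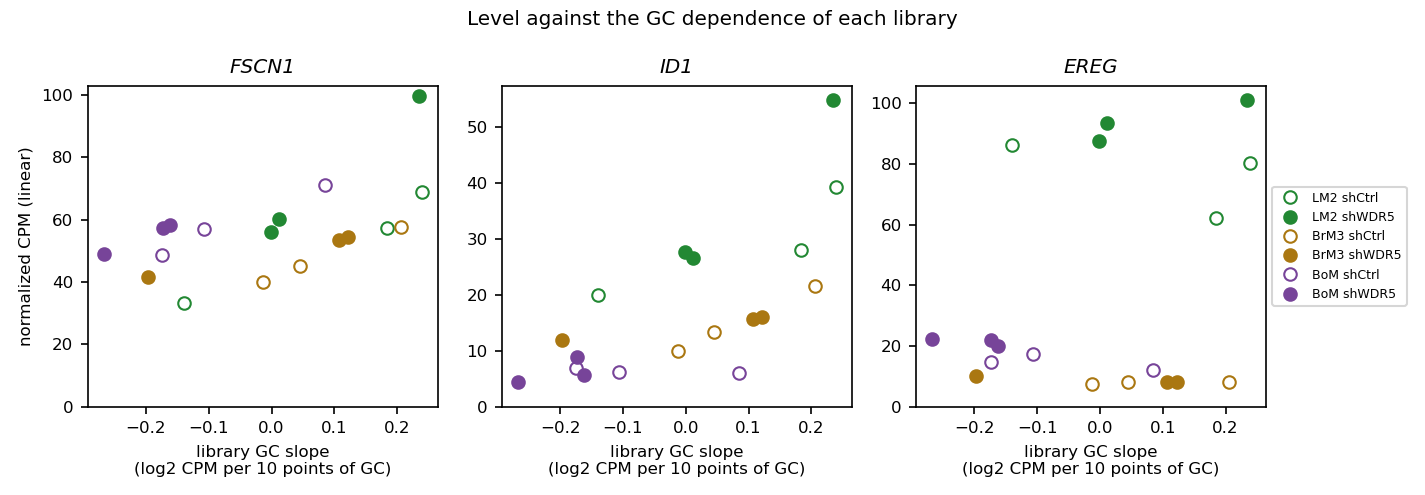
Normalized CPM (linear axis from 0) of FSCN1, ID1 and EREG in 18 libraries against each library's GC slope (log2 CPM per 10 points of GC content); colours mark lines, open points shCtrl and filled points shWDR5. In LM2 shCtrl, FSCN1 and ID1 are lowest in the library with a slope of -0.140 and highest in that with 0.239, and EREG separates by line.

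Compared per kilobase of exon, the members spanned a wide range. In LM2 with shCtrl, MMP1 was at 103 ± 20.4 CPM per kilobase, SPARC at 80.2 ± 1.10, TNC at 37.7 ± 5.20, ID1 at 23.6 ± 7.83, FSCN1 at 14.4 ± 4.87 and EREG at 13.3 ± 2.19 (SD, n = 3). CXCL1 followed at 4.74 ± 2.13, ANGPTL4 at 4.33 ± 1.60, VCAM1 at 2.11 ± 0.331 and PTGS2 at 0.876 ± 0.231. Neighbours FSCN1 and EREG, and likewise CXCL1 and ANGPTL4, lay within 1 SD of each other. In BoM, MMP1 led at 171 ± 53.4 CPM per kilobase and FSCN1 came next at 15.9 ± 3.06, while SPARC stood at 0.654 ± 0.439.

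Over the 18 libraries, the genes whose log2 CPM was most like that of a member had Pearson coefficients between 0.844 and 0.994, as a description of libraries that share lines and GC dependence. EPS8 and MMP16 were closest to EREG (0.990 and 0.984), RGS4 and PRAG1 to SPARC (0.994 and 0.993), RAPGEF1 and THSD4 to TNC (0.990 and 0.988) and ASB2 and CSF3 to VCAM1 (both 0.978). HTR7 and LRP12 were closest to MMP1 (0.966 and 0.963), STMN3 and ITGB4 to ANGPTL4 (0.976 and 0.975), and TMEM250 and PLIN3 to ID1 (0.976 and 0.969). FSCN1 was closest to SNRNP70 and ZNF787 (0.922 and 0.908), PTGS2 to POGLUT3 and MBTPS2 (0.883 and 0.881) and CXCL1 to FBXO32 and RSPH3 (0.849 and 0.844).

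The responses of the 10 genes to shWDR5 were compared between lines directly. edgeR called 0 members for a difference of response in each pair of lines, and 0 were under an unadjusted p of 0.05. DESeq2 had 0, 0 and 1 member under an unadjusted 0.05 for BrM3 over LM2, BoM over LM2 and BoM over BrM3, and the fit with the replicate block had 2, 3 and 2. Over all tested genes, 2.91%, 5.17% and 2.89% were under an unadjusted p of 0.05 in the edgeR fit without a block. No such share was computed for DESeq2 or the block, and the replicate numbers did not pair the libraries of LM2 or BrM3. By adjusted p, edgeR without a block called 0.00828%, 0.00% and 0.00828% of all tested genes in these 3 pairs. The members' median difference of response was -0.19, -0.04 and 0.02 on the log2 scale, with 0.00, 0.01 and 0.01 over all tested genes.

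The list of 13 other genes associated with the lung-tropic derivative, of which 12 were tested, showed no common order of lines. CXCR4, a chemokine receptor, was at 0.728 ± 0.255 CPM in LM2 against 47.6 ± 5.16 in BrM3 and 22.8 ± 0.59 in BoM under shCtrl, and IL13RA2, a decoy receptor, was at 28.4 ± 3.14, 26.4 ± 1.44 and 1.53 ± 0.182 (SD, n = 3). Of the 12, 3 were called higher and 4 lower in BrM3 than in LM2, and 2 higher and 6 lower in BoM, where 24.2%, 23.4%, 25.9% and 25.8% of all tested genes were called in these directions. ALDH3A1 is among the lower genes in both comparisons and passed the filter through LM2 alone, so these calls are not independent of that selection. With shWDR5, edgeR called 0 of the 12 in LM2, where 4 were under an unadjusted p of 0.05 and DESeq2 called 0. In BrM3, ALDH3A1, an aldehyde dehydrogenase, and LY6E, a surface protein of the Ly6 family, fell with log2 fold changes of -1.16 and -0.72 (adjusted p = 0.014 and 0.047). In BoM, LY6E and EFEMP1, a matrix fibulin, fell with log2 fold changes of -0.73 and -0.41 (adjusted p = 0.035 and 0.0088) and MAN1A1, a mannosidase of the Golgi, rose by 0.71 (adjusted p = 0.011).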

How the data were processed

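RNA of 18 cultures was sequenced with a stranded, polyadenylated RNA kit, and the authors aligned paired-end reads to hg38 with STAR 2.7.0 (tool and version per the submitters' processing notes). The deposited table holds the raw count of reads per gene, without normalization by the authors; the strand setting of the counting is not given in the sources used here. The authors' DESeq2 fold changes and p-values were not used. The methods name spike-in RNA, but the table holds 0 rows for it. Lines and hairpins come from the sample titles and cell line labels; the labels of the source material name other lines for most libraries and were not used. Column codes were matched to the same titles, and 0 per-sample columns were left over. Doxycycline was at 1 µg/mL for 3 days.

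The members and gene lists were chosen with earlier results of these data known. Genes were kept where the highest normalized count passed 146, the threshold with the highest smoothed Jaccard index between replicates (0.97, over 100 thresholds between 1 and 200), which left 12081 genes. The quasi-likelihood test of edgeR 4.0.16 (R 4.3.3) was run on these counts with TMM scaling, in 1 model of 6 groups with 12 residual degrees of freedom. Benjamini-Hochberg adjustment covered all tested genes, and an adjusted p under 0.05 made a call. CPM values use the same scaling, intervals are at 95%, and gene coordinates are of GENCODE release 44 on GRCh38. The fit was checked on simulated counts. Replicate pairs within groups differed by more than sampling noise (chi-square per gene between 5.15 and 90.6), so each library counts as 1 replicate. Intervals include the spread between replicates, and the floor for a count of 0 covers counting error only.

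Whether replicate numbers pair libraries was checked by the correlation of deviations from the group means. In BoM the 3 same-numbered pairs gave 0.566, 0.323 and 0.145, all over 0.1, and the numbers come from the sample titles. An unlike-numbered BoM pair, shCtrl replicate 2 with shWDR5 replicate 3, gave 0.211, above the lowest of these, so the pairing is not established. The fit with the replicate block is printed beside the members' BoM results and list counts where it changes a call. The genes named are the 10 members in every comparison, WDR5, up to 4 genes per related list called after knockdown, up to 2 with the largest called difference between lines, and the 2 genes closest to each member in log2 CPM (prior count 2) over the libraries. Alternatives were DESeq2 1.42.0, RLE scaling, filterByExpr (18428 genes), no filter (41236 genes), the replicate block, only the groups compared, and leaving out each library. Those chosen after seeing the data were thinning to 17485841 counts and removal of GC dependence by loess (span 0.5, GC known for 99.8% of genes) with limma 3.58.1. The GC setting thus changes the tool as well as the GC dependence, and the 2 changes were not tested apart.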

Additional observations from a re-analysis of the deposited data

How the results depend on the processing

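Over the members' 600 repeats by comparison and alternative, 536 kept direction and side of the threshold, 20 passed it anew, 18 lost it and 26 changed direction; the cause was not tested. The count of members higher with shWDR5 in LM2 became 1 with no filter and 2 with GC dependence removed, and the count lower became 0 with GC removed, 0 after thinning and 0 in the lowest fit that left out 1 library. In BrM3 the count higher became 1 with only the groups compared and 1 with GC removed, and the count lower became 1 with DESeq2, 2 with the replicate block (VCAM1 and TNC, where the replicate numbers did not pair the libraries, with correlations of 0.546, 0.515 and -0.178) and up to 1 without 1 library. In BoM the count higher became 2 with no filter, 3 with the replicate block, 0 with only the groups compared and 0 in the lowest fit without 1 library, and the count lower became 1 with the replicate block and 1 with GC removed. In LM2 the numbers did not pair either (0.576, 0.0251 and 0.729), and the block changed no member's call there. Between lines, members higher became 2 for BoM over LM2 and 2 for BoM over BrM3 with GC removed, and members lower in BoM over BrM3 ranged from 3 to 5 over the fits that left out 1 library. The replicate block changed no member's call between lines.

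Small log2 fold changes turned sign. ID1 in BrM3 was 0.02 with filterByExpr, 0.02 with no filter, 0.01 with the block and 0.16 with GC removed, and in BoM 0.01 with DESeq2, 0.01 with RLE scaling, 0.01 with filterByExpr and 0.12 with GC removed. CXCL1 in BrM3 was 0.01 with filterByExpr, 0.03 with GC removed and 0.01 after thinning. VCAM1 in BoM was 0.04 with the block, 0.22 with GC removed and 0.09 after thinning, and FSCN1 in BoM 0.17 with GC removed. Leaving out 1 library gave ranges of -0.11 to 0.58 for ID1 and -0.05 to 0.15 for TNC in LM2, of -0.26 to 0.32 for ID1, -0.30 to 0.20 for CXCL1 and -0.04 to 0.23 for FSCN1 in BrM3, and of -0.34 to 0.21 for ID1, -0.02 to 1.06 for SPARC, -0.46 to 0.28 for VCAM1 and -0.22 to 0.05 for FSCN1 in BoM. For FSCN1 between lines they were -0.40 to 0.07 for BrM3 over LM2 and -0.10 to 0.37 for BoM over LM2.

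All genes called after knockdown numbered 756 in LM2, and 1142 with DESeq2, 1434 with the block, 290 with only the groups compared, 1843 with GC removed, 491 after thinning and 384 in the lowest fit without 1 library. In BrM3 they numbered 1298, and 2277 with the block, 2826 with GC removed and 730 in the lowest fit; in BoM 1946, and 3172, 3345, 901 with only the groups compared and 1169 in the lowest fit. Depth limits VCAM1 in BrM3 and BoM, where each library held between 0 and 21 counts.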

Other observations

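The marker lists showed changes of their own in genes outside the signature. Of 9 luminal markers, 5 were tested, and EPCAM, an epithelial adhesion molecule, fell with shWDR5 in BrM3 (log2 fold change -0.77, adjusted p = 0.00089) and in BoM (-0.60, adjusted p = 0.0034), from 9.72 to 5.67 and from 9.83 to 6.49 CPM. The keratins KRT8 and KRT19 fell in BoM with log2 fold changes of -0.50 and -0.73 (adjusted p = 0.034 and 0.02). CD14, a monocyte receptor and the 1 tested gene of the leukocyte list, fell in BrM3 from 2.09 ± 0.31 to 0.641 ± 0.189 CPM (SD, n = 3; adjusted p = 0.017), while CD3E was at or near 0. PECAM1, an endothelial adhesion molecule and 1 of 2 tested endothelial markers, rose in LM2 from 2.22 ± 0.0585 to 3.70 ± 0.849 CPM (adjusted p = 0.033). All 5 tested markers of mesenchymal triple-negative cells missed the threshold in edgeR after knockdown in each line, with 3, 1 and 0 under an unadjusted p of 0.05 in LM2, BrM3 and BoM and 1 called by DESeq2, in LM2. These genes were named after their values were seen.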
